A study of Capra hircus with 7 samples.

Results

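Collagen alpha chain genes were followed in goat (Capra hircus) mammary gland cells in which the level of a circular RNA, cirRNA28250, had been altered. Members were all genes whose symbol is COL, a number, A and a number, found by matching the NCBI gene identifiers of the deposited table to the RefSeq gene table of assembly ARS1.2. The deposited table held 43 of the 44 such genes of the RefSeq table, among 17374 genes in all; COL20A1 is the one not analysed here. The rule itself uses gene symbols and no measured value, but it was chosen with earlier results of these data known. By the structure of the collagen they form, 11 were fibrillar, 6 basement membrane (type IV), 9 FACIT and 17 of other types.

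The cells came from the mammary gland of the Lanshan dairy goat and were grown in 3D culture with virus added, either to overexpress cirRNA28250 or to inhibit it. The 7 RNA-seq libraries of total RNA fell into 4 groups, named as in the labels: cKDmix, the knockdown (2 libraries), c3NC, listed beside the knockdown and used as its control (2 libraries), cRNA28250, the overexpression (2 libraries), and c5NC, listed beside the overexpression and used as its control (1 library). The labels give neither the kind of virus, the construct carried by each control, the age of the animals, nor whether replicates came from separate cultures, so every p-value reflects only how far these libraries scatter, and that scatter may be technical. The level of cirRNA28250 itself is not analysed here, since no row of the gene table was matched to it. Levels are in FPKM, fragments scaled by transcript length and by sequencing depth, so that chains of different length can be set side by side; the number of reads behind each library is not given in the sources used here, and precision rests on replicate spread alone.

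Collagens are trimers of alpha chains wound into a triple helix. Fibroblasts and other stromal cells secrete the fibrillar types I, III and V, which form the tensile fibrils of connective tissue. FACIT collagens (fibril-associated collagens with interrupted triple helices) decorate those fibrils, type IV forms the network of basement membranes, and type VI forms beaded filaments between these. In the mammary gland, type IV collagen underlies the epithelium and the vessels, while types I and III fill the stroma around the ducts.

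The labelled tissue was checked against marker genes first, since the levels of stromal collagens depend on which cells are present. Of 11 fibroblast markers, all measured, 10 passed the filter used for testing (1 FPKM or more in 2 or more of the 7 libraries), and their summed level ran from 11124 to 18897 FPKM. Of 9 luminal epithelial markers measured, 2 passed, ESR1 at 17.6 to 22.8 FPKM and CLDN4 at 4.45 to 15.8 FPKM. EPCAM, KRT8 and KRT18 were at or below 0.28 FPKM in every library. Of 7 basal or myoepithelial markers measured, 4 passed, namely ACTA2, TAGLN, MYLK and OXTR. ACTA2 ran from 63.5 to 834 FPKM, TAGLN from 162 to 1296 FPKM and MYLK from 15.9 to 384 FPKM. KRT5 was at or below 0.53 FPKM. Endothelial, adipocyte and milk protein markers gave 4, 3 and 2 measured genes, and 0 of each passed. In bulk RNA of this kind, fewer cells of a type and less RNA per cell cannot be told apart.

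Of the 43 collagen genes, 23 passed the filter and were tested: 8 fibrillar, 3 of type IV, 5 FACIT and 7 of other types. The 20 that did not pass reached at most 1.69 FPKM in any library, the highest being COL24A1 in cRNA28250 replicate 2. Among them were COL2A1, the cartilage fibril chain, at or below 0.03 FPKM, and COL10A1, a chain of growth plate cartilage, at or below 0.06 FPKM. COL4A3 and COL4A4, type IV chains of specialised basement membranes such as that of the kidney glomerulus, stayed at or below 0.02 FPKM. COL17A1, a transmembrane collagen of epithelial hemidesmosomes, stood between 0.24 and 0.83 FPKM. COL18A1, a collagen of basement membrane zones, was at 0.66 and 0.74 FPKM in cKDmix and between 0.03 and 0.31 FPKM in the other 5 libraries.

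All collagen chains together summed to 4644 and 5166 FPKM in cKDmix, against 9654 and 9524 FPKM in c3NC. The same sum was 8173 and 2994 FPKM in cRNA28250, against 4093 FPKM in c5NC. Both cKDmix libraries were thus near the level of c5NC, and the replicates of cRNA28250 lay at opposite ends, one close to c3NC and the other below every other library. As a share of all FPKM in a library, collagen chains held 0.877% and 1.09% in cKDmix, 1.59% and 1.62% in c3NC, 1.44% and 0.466% in cRNA28250, and 0.652% in c5NC. The fold between highest and lowest library was 4.73 for type IV, 3.43 for fibrillar, 2.97 for other types and 1.66 for FACIT. The summed FACIT level therefore varied least, between 54.4 and 90.4 FPKM.

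**Figure D1:**
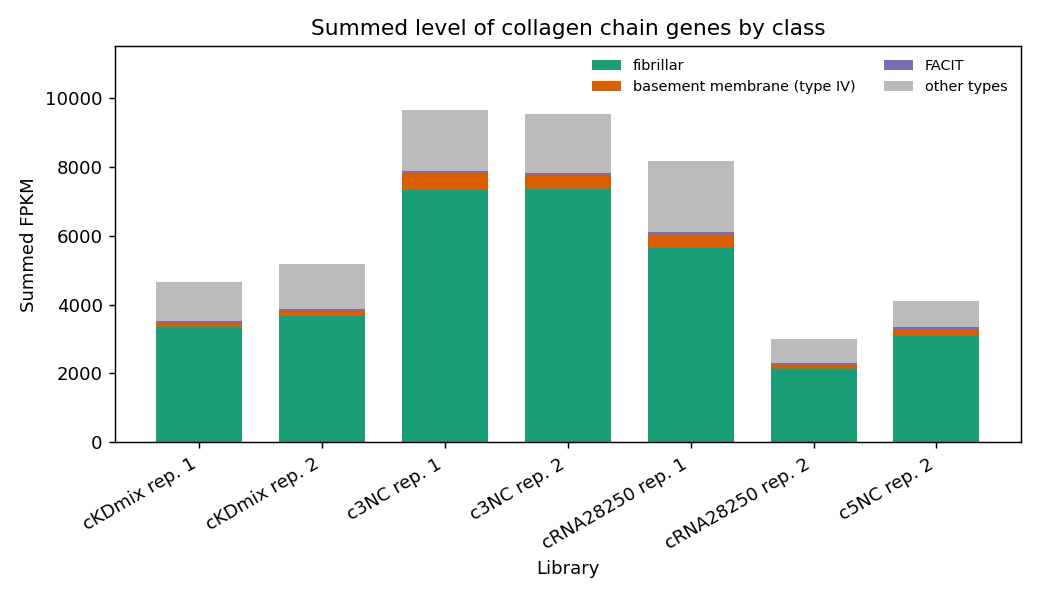
Summed FPKM of the collagen chain genes in each library, stacked by class. The c3NC libraries (9654 and 9524 FPKM) and cRNA28250 replicate 1 (8173 FPKM) stand above the other 4 libraries, which lie between 2994 and 5166 FPKM.

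The most abundant chains were those of types I and III. COL1A2, COL3A1 and COL1A1 together made up 65.7% and 64.1% of the collagen FPKM in cKDmix, 72.9% and 73.9% in c3NC, 65.5% and 67.1% in cRNA28250, and 71.5% in c5NC. COL3A1 ranked 31st to 162nd among all genes of a library and COL1A2 22nd to 124th. Next by mean level came COL6A1, COL6A2, COL8A1, COL5A2 and COL4A1. The library with the highest value was cRNA28250 replicate 1 for 9 of the 23 tested chains, and the library with the lowest was cRNA28250 replicate 2 for 9 and c5NC for 7.

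**Figure D2:**
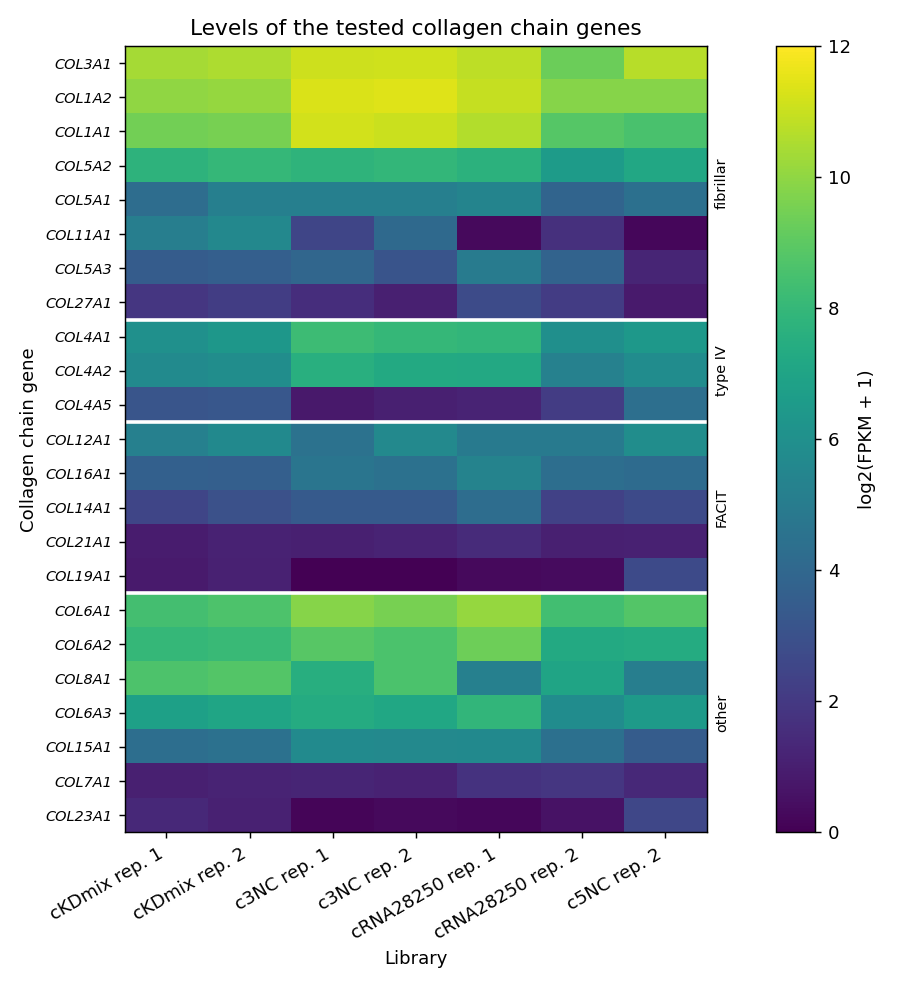
Level of the 23 tested collagen chain genes, as log2(FPKM + 1), in each of the 7 libraries, with chains grouped by class and ordered by mean level within a class. COL1A1, COL1A2 and COL3A1 are the brightest rows in every library except c5NC, where COL6A1 (439 FPKM) exceeds COL1A1 (377 FPKM). COL4A5, COL19A1 and COL23A1 are brightest in c5NC.

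Setting cKDmix against c3NC asks how collagen transcripts differed when cirRNA28250 was knocked down. The main chains of type I and type IV collagen fell to between 0.27 and 0.41 times their c3NC level, as did COL15A1, while a minor fibrillar chain, COL11A1, and the third type IV chain, COL4A5, rose. Type III, V and VI chains were not called. Of the 23 tested chains, 4 were called higher and 5 lower (limma on log2(FPKM + 1), adjusted over the 12180 tested genes by the Benjamini-Hochberg method, p under 0.05), or 39.1%, against 34.4% of all genes. By direction, 26.8% of all genes were called higher and 7.56% lower. The chains had a median log2 fold change of −0.35, and all genes one of 0.30.

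COL1A1, which encodes the chain present in 2 copies per type I trimer, stood at 689 and 739 FPKM in cKDmix, against 2299 and 2074 FPKM in c3NC. The groups did not overlap, and the log2 fold change was −1.61 ± 0.53 (SE; limma, Benjamini-Hochberg adjusted p = 0.0485). COL1A2, which encodes the partner chain, stood at 1035 and 1102 FPKM in cKDmix, against 2543 and 2739 FPKM in c3NC, with a log2 fold change of −1.30 ± 0.40 (limma, adjusted p = 0.0401). COL3A1 encodes the single chain of type III collagen, which is fibrillar and co-assembles with type I. It was at 1330 and 1469 FPKM in cKDmix, against 2193 and 2220 FPKM in c3NC, and was not called (log2 fold change −0.66 ± 0.48; limma, adjusted p = 0.309), although the groups did not overlap.

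Types V and XI are fibrillar collagens of low abundance that sit inside type I fibrils and limit their diameter. COL5A2 was at 217 and 256 FPKM in cKDmix, against 220 and 243 FPKM in c3NC, and COL5A1 at 18.8 and 35.4 FPKM in cKDmix, against 35.2 and 34.9 FPKM in c3NC. The groups overlapped for both chains. COL5A3, the third type V chain, was at 10.1 and 11.3 FPKM in cKDmix, between the c3NC values of 14.5 and 7.54 FPKM. COL11A1, a type XI chain best known from cartilage and from activated stroma of tumours, rose. It stood at 34.4 and 46.9 FPKM in cKDmix, against 4.78 and 16.3 FPKM in c3NC, or log2 2.04 ± 0.58 (limma, adjusted p = 0.0305). The call ended with a pseudocount of 0.1 (limma, adjusted p = 0.0922) and with no filter on low values (0.104). Its level in cKDmix was above that of COL5A1 in the same library, while in c3NC it was below. COL27A1, a late-branching fibrillar chain, was at 2.75 and 3.55 FPKM in cKDmix, against 2.0 and 1.11 FPKM in c3NC, and was not called (limma, adjusted p = 0.0818).

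Type IV collagen was called in all 3 of its tested chains, in both directions. COL4A1 and COL4A2 encode the chains of the common basement membrane trimer. COL4A1 fell to 64.7 and 81.8 FPKM in cKDmix, against 299 and 252 FPKM in c3NC, or log2 −1.90 ± 0.53 (limma, adjusted p = 0.0295). COL4A2 fell to 52.1 and 58.0 FPKM in cKDmix, against 190 and 157 FPKM in c3NC (−1.63 ± 0.53; limma, adjusted p = 0.0487). COL4A5, whose chain belongs to less widespread type IV trimers and is altered in Alport syndrome, moved the other way. It was at 7.96 and 8.57 FPKM in cKDmix, against 0.76 and 1.11 FPKM in c3NC, a log2 fold change of 2.26 ± 0.31 (limma, adjusted p = 0.0047). As a share of type IV FPKM, COL4A5 made up 6.37% and 5.77% in cKDmix and 0.155% and 0.271% in c3NC.

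Among the FACIT genes, COL19A1 was called higher at a low level: 0.82 and 1.14 FPKM in cKDmix, and listed at 0 in both c3NC libraries (limma, adjusted p = 0.0112). COL16A1, expressed by many stromal cells, was at 11.9 and 11.2 FPKM in cKDmix, against 24.0 and 21.5 FPKM in c3NC. It was not called with the unscaled values (limma, adjusted p = 0.0550) and was called lower after quantile normalization (adjusted p = 0.0395) and after scaling by the median ratio (adjusted p = 0.0271). COL12A1 and COL14A1, which bind the surface of type I fibrils, and COL21A1 were not called, with log2 fold changes from −0.62 to 0.38. The COL12A1 value in cKDmix, 35.9 and 50.3 FPKM, overlapped the 21.7 and 48.4 FPKM of c3NC.

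Of the other types, COL15A1, a multiplexin that links basement membranes to the stroma, fell to 19.2 and 21.3 FPKM in cKDmix, against 52.7 and 49.5 FPKM in c3NC. Its log2 fold change was −1.29 ± 0.36 (limma, Benjamini-Hochberg adjusted p = 0.0279). The type VI chains were not called. COL6A1 was at 335 and 406 FPKM in cKDmix, against 917 and 732 FPKM in c3NC, with no overlap (log2 fold change −1.15 ± 0.51; limma, adjusted p = 0.113). COL6A2 was at 252 and 277 FPKM in cKDmix, against 476 and 386 FPKM in c3NC, and COL6A3, the longest chain, at 110 and 132 FPKM in cKDmix, against 166 and 143 FPKM in c3NC. COL8A1, a short chain of network-forming collagen in vessel walls and in Descemet's membrane of the eye, was the highest non-fibrillar chain in cKDmix. It stood at 406 and 442 FPKM there, against 181 and 383 FPKM in c3NC, and was not called (limma, adjusted p = 0.370). Its partner COL8A2 was not tested, at 0.76 and 0.81 FPKM in cKDmix and 0.17 and 0.13 FPKM in c3NC. COL23A1, a transmembrane collagen, was called higher, at 1.59 and 1.15 FPKM in cKDmix, against 0.11 and 0.24 FPKM in c3NC (limma, adjusted p = 0.0155). COL19A1 and COL23A1 reached 1 FPKM only in cKDmix and c5NC libraries. They thus passed the filter only through the groups in which they stood high. With no filter on low values both were still called higher in cKDmix (limma, adjusted p = 0.0198 and 0.032).

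The summed FPKM of all genes was 529676 and 476096 in cKDmix, against 608882 and 588129 in c3NC, and some marker lists differed in sum too. The 11 fibroblast markers summed to 12241 and 11124 FPKM in cKDmix, against 15921 and 17269 FPKM in c3NC. DCN and VIM were the largest members and lay lower in cKDmix. THY1 went the other way, at 83.1 and 75.4 FPKM in cKDmix, against 27.1 and 36.7 FPKM in c3NC, and MFAP5 overlapped. The 4 macrophage and leukocyte markers, 2 of them tested, summed to 65.2 and 63.6 FPKM in cKDmix, against 224 and 186 FPKM in c3NC. Of these, CD14 was at 45.7 and 44.0 FPKM in cKDmix, against 218 and 177 FPKM in c3NC, CD68 at 19.4 and 19.3 FPKM in cKDmix, against 5.86 and 8.61 FPKM in c3NC, and PTPRC at or below 0.02 FPKM in every library. The 6 pericyte or smooth muscle markers, 3 of them tested, summed to 51.2 and 53.6 FPKM in cKDmix, against 23.9 and 27.7 FPKM in c3NC. Within this list CNN1 was at 29.99 and 29.65 FPKM in cKDmix, against 0.56 and 1.99 FPKM in c3NC. MYH11 went the other way, at 9.13 and 10.4 FPKM in cKDmix, against 13.98 and 17.06 FPKM in c3NC. The part of these markers in the result was not tested. Quantile normalization kept COL15A1, COL11A1, COL4A5 and COL19A1 called and ended the calls of COL1A1, COL1A2, COL4A1, COL4A2 and COL23A1 (limma, adjusted p = 0.248, 0.211, 0.0641, 0.0893 and 0.0586), and it moved the share of higher calls among all called genes to 49.7%, against 78.0% unscaled. With no filter on low values 0 chains were called lower. Without any one of the 4 cKDmix or c3NC libraries 0 chains were called lower; the higher calls were 1 and 2 without c3NC replicate 1 and 2 (COL4A5 in both) and 0 without either cKDmix library. Without either cRNA28250 library, whose spread enters the shared variance, more chains were called in each direction. The number of genes called over the whole table also changed with the library left out, as the closing section gives.

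**Figure D3:**
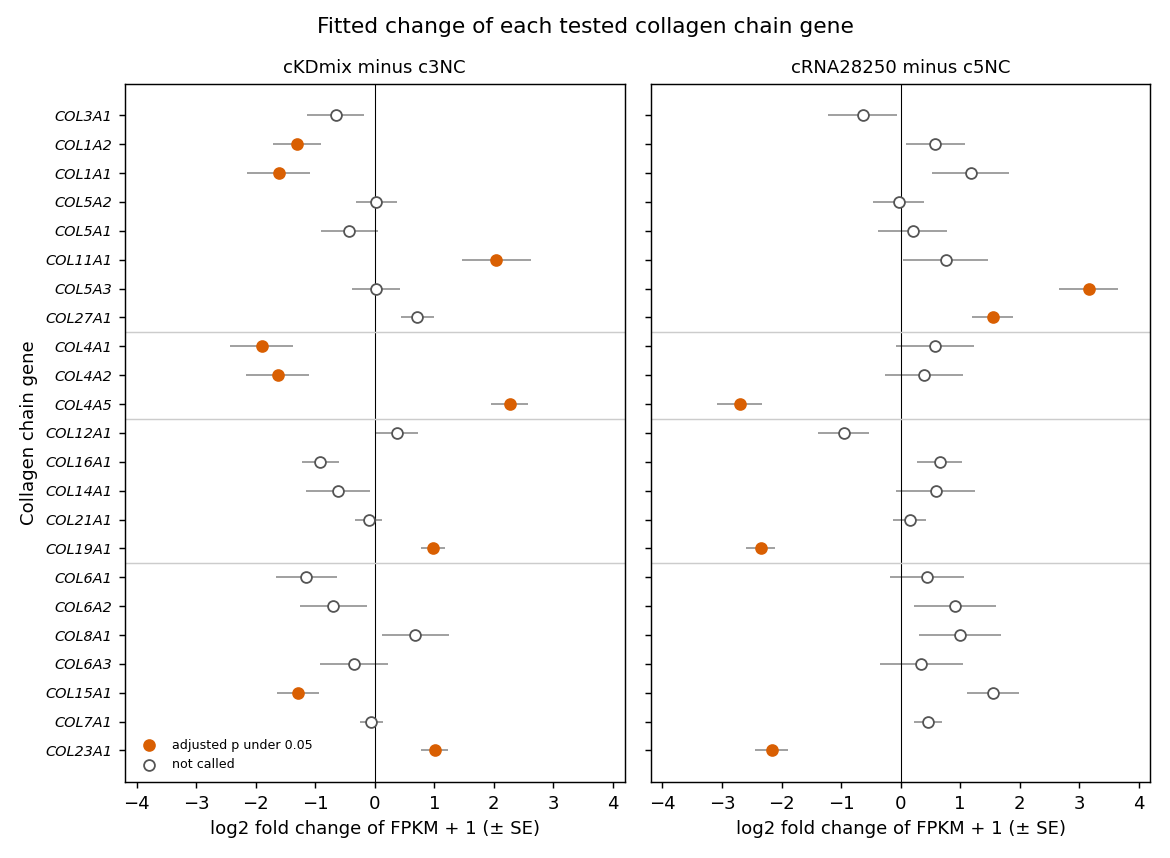
Fitted log2 fold change of FPKM + 1, with its standard error, for each of the 23 tested collagen chain genes, in cKDmix minus c3NC (left) and cRNA28250 minus c5NC (right); filled points have a limma adjusted p under 0.05. COL4A5, COL19A1 and COL23A1 are called higher in the left panel and lower in the right panel.

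The comparison of cRNA28250 with c5NC asks the same question of the overexpression. A pair of low-level fibrillar chains, COL5A3 and COL27A1, rose, while COL4A5, COL19A1 and COL23A1 fell. Of the chains of types I, III and VI, and of COL4A1 and COL4A2, 0 were called; replicate 1 of cRNA28250 lay above c5NC for each of them, and replicate 2 below it for 6 of the 8. Limma called 2 chains higher and 3 lower of 23, or 21.7%, against 7.62% of all genes (5.07% higher and 2.55% lower). The chains had a median log2 fold change of 0.46, and all genes one of 0.16.

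COL5A3 was at 30.8 and 13.4 FPKM in cRNA28250, against 1.39 FPKM in c5NC, which gave a log2 fold change of 3.16 ± 0.50 (limma, adjusted p = 0.0112). COL27A1 was at 5.62 and 3.43 FPKM in cRNA28250, against 0.85 FPKM in c5NC (1.55 ± 0.34; limma, adjusted p = 0.0371). Every cRNA28250 library was above c5NC for both genes. COL4A5 was at 1.28 and 3.39 FPKM in cRNA28250, against 19.6 FPKM in c5NC, a log2 fold change of −2.71 ± 0.38 (limma, adjusted p = 0.00724). COL19A1, a FACIT of basement membrane zones, was at 0.24 and 0.27 FPKM in cRNA28250, against 5.4 FPKM in c5NC (−2.35 ± 0.24; limma, adjusted p = 0.0023). COL23A1 was at 0.14 and 0.52 FPKM in cRNA28250, against 4.90 FPKM in c5NC (−2.16 ± 0.28; limma, adjusted p = 0.00524). The last 3 were low in both cRNA28250 libraries, and c5NC was the highest of all 7 libraries for each. Of these, COL19A1 and COL23A1 passed the filter only through libraries of c5NC and cKDmix.

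For COL1A1, cRNA28250 had 1591 and 458 FPKM, against 377 FPKM in c5NC, and for COL1A2 it had 1982 and 916 FPKM, against 898 FPKM in c5NC. COL3A1 was at 1779 and 636 FPKM in cRNA28250, on either side of the 1652 FPKM of c5NC. COL15A1, at 49.99 and 20.9 FPKM in cRNA28250, against 10.3 FPKM in c5NC, was not called (limma, adjusted p = 0.0758). COL11A1 was at 0.22 and 2.20 FPKM in cRNA28250, against 0.17 FPKM in c5NC, both far under the 34.4 and 46.9 FPKM of cKDmix. COL8A1 was at 36.7 and 129 FPKM in cRNA28250, against 33.8 FPKM in c5NC.

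This contrast rests on 1 control library, which is assumed to vary like the others, and on replicates that differ. Without cRNA28250 replicate 2, 12 chains were called higher, among them COL1A1, COL1A2, COL4A1, COL4A2 and COL6A1 to COL6A3; without replicate 1, 4 were, namely COL5A3, COL27A1, COL15A1 and COL8A1, and COL3A1 was called lower besides COL4A5, COL19A1 and COL23A1. Without c3NC replicate 1 or 2 only COL5A3 was called higher, and without either cKDmix library, or with no filter on low values, 0 were. The number of genes called over the whole table changed with the library left out as well, as the closing section gives. COL27A1 also lost its call after quantile normalization and with only the libraries compared in the fit. The 7 basal or myoepithelial markers summed to 1449 and 1439 FPKM in cRNA28250, against 247 FPKM in c5NC. Most of this sum came from ACTA2, TAGLN and MYLK, while the keratins went the other way. KRT14 was at 0.07 and 0.78 FPKM in cRNA28250, against 4.22 FPKM in c5NC, and KRT5 at 0 and 0.08 FPKM, against 0.53 FPKM. The 6 pericyte or smooth muscle markers summed to 39.6 and 36.3 FPKM in cRNA28250, against 18.1 FPKM in c5NC. The 11 fibroblast markers summed to 16339 and 18897 FPKM in cRNA28250, against 15086 FPKM in c5NC, and went both ways. LUM was at 2647 and 3275 FPKM in cRNA28250, against 757 FPKM, and DPT at 84.9 and 116 FPKM, against 8.12 FPKM. DCN, PDGFRA, THY1, FAP and MFAP5 were also higher in both cRNA28250 libraries. VIM (3605 and 4033 FPKM, against 7644 FPKM) and S100A4 were lower, PDGFRB lay on both sides and PI16 was equal. The part of all these markers in the result was not tested.

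The replicates of cRNA28250 stood further apart in collagen genes than those of the other groups. Between replicate 1 and replicate 2, 14 of the 23 tested chains were at least 1 higher and 2 at least 1 lower on the log2(FPKM + 1) scale, with a median difference of 1.11. Over all tested genes 8.52% differed by at least 1 in either direction, with a median of −0.12, and 2.74% were at least 1 higher in replicate 1. The same count was 0 of 23 between the cKDmix replicates and 3 of 23 between the c3NC replicates, all 3 of them higher in c3NC replicate 2. Over all tested genes the share was 0.755% in cKDmix and 0.657% in c3NC, so the wider gap in cRNA28250 was not limited to collagen genes.

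Type VI chains, COL4A1, COL4A2 and the FACIT chain COL14A1 showed gaps of this kind. COL6A3 was at 240 FPKM in cRNA28250 replicate 1 and 55.8 FPKM in replicate 2, COL6A2 at 643 and 156 FPKM, and COL6A1 at 1084 and 327 FPKM. COL4A1 was at 239 and 62.7 FPKM, COL4A2 at 148 and 37.4 FPKM, and COL14A1 at 18.5 and 4.04 FPKM. COL8A1 and COL11A1 went the other way, replicate 1 being at 0.286 and 0.10 times replicate 2. Fibroblast markers went both ways between these replicates. Of the 11, 3 were higher in replicate 1, 7 were higher in replicate 2 and 1 was equal. The platelet-derived growth factor receptors PDGFRA (27.6 and 11.9 FPKM) and PDGFRB (65.3 and 32.6 FPKM) and S100A4 (972 and 620 FPKM) were higher in replicate 1. In the other direction, DCN, a collagen-binding proteoglycan of fibroblasts, was at 8015 and 8882 FPKM, LUM at 2647 and 3275 FPKM, and THY1, a surface protein of fibroblasts, at 84.3 and 140 FPKM. The sum of the list, of which DCN is the largest part, was 16339 FPKM in replicate 1 and 18897 FPKM in replicate 2, and the part of these markers in the gap was not tested.

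**Figure D4:**
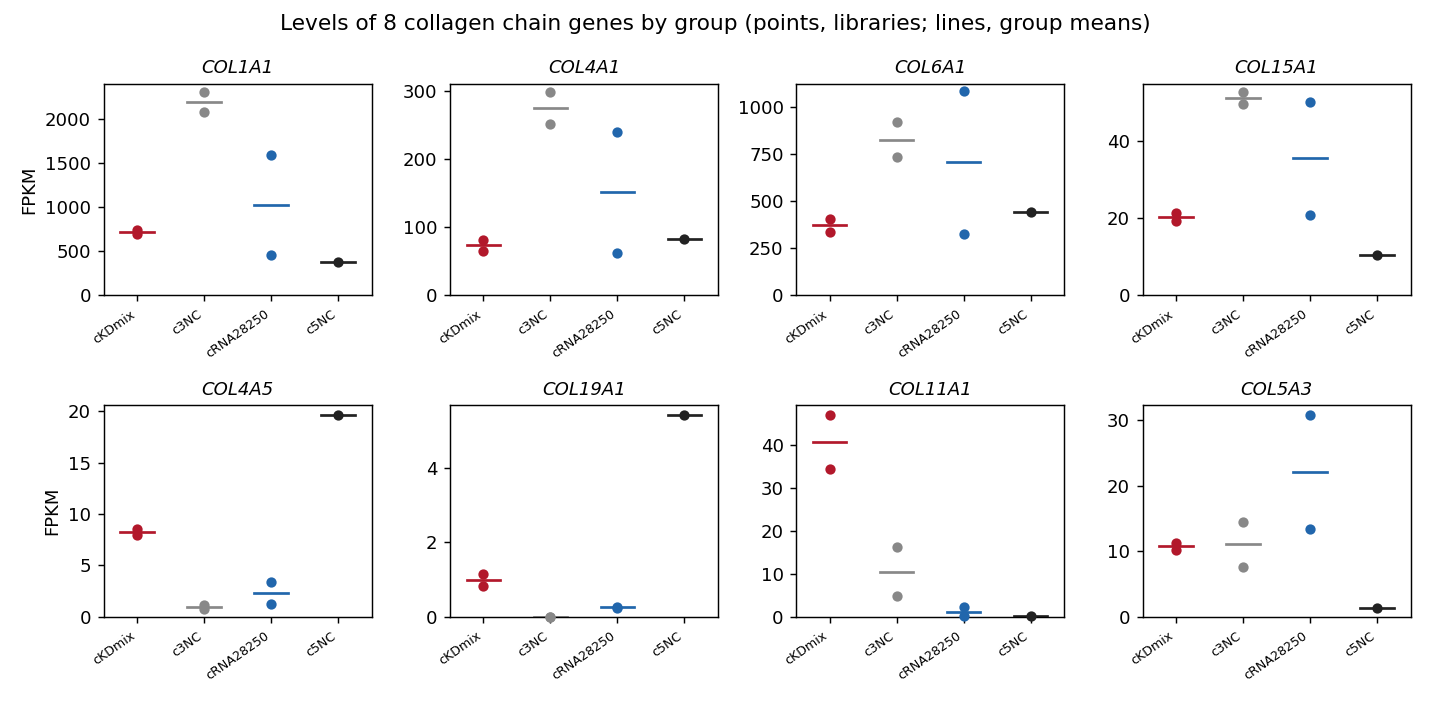
FPKM of 8 collagen chain genes by group; points are libraries and lines group means, on linear axes that start at 0. In the upper row both c3NC points lie high and the cRNA28250 points far apart; in the lower row COL4A5 and COL19A1 peak in c5NC (19.6 and 5.4 FPKM), COL11A1 in cKDmix (34.4 and 46.9 FPKM) and COL5A3 in cRNA28250 replicate 1 (30.8 FPKM).

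The control groups c3NC and c5NC were set against each other because each stands under one of the contrasts above. COL5A3, COL11A1 and COL15A1 were higher in c3NC, and COL4A5, COL19A1 and COL23A1 were higher in c5NC. Limma called 3 chains higher and 3 lower in c3NC than in c5NC, or 26.1% of 23, against 5.80% of all genes (2.73% higher and 3.07% lower). COL11A1 was at 4.78 and 16.3 FPKM in c3NC, against 0.17 FPKM in c5NC (log2 fold change 3.09 ± 0.71; limma, Benjamini-Hochberg adjusted p = 0.0474). COL5A3 (2.27 ± 0.50; adjusted p = 0.0418) and COL15A1 (2.20 ± 0.44; limma, adjusted p = 0.0296) were also higher in c3NC, and their c5NC values, 1.39 and 10.3 FPKM, were the lowest of the 7 libraries. Without either cKDmix library, or without c3NC replicate 2, 0 chains were called higher in c3NC, without c3NC replicate 1 only COL11A1 was, and without either cRNA28250 library 11 were. Calls over the whole table changed with the library left out too, as the closing section gives. With no filter on low values 0 chains were called higher, and after quantile normalization COL5A3 was not (limma, adjusted p = 0.0562).

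The 3 chains lower in c3NC were those that peaked in c5NC. Among them, COL19A1 and COL23A1 passed the filter only through libraries of c5NC and cKDmix. COL4A5 was at 0.76 and 1.11 FPKM in c3NC, against 19.6 FPKM in c5NC (−3.42 ± 0.38; limma, adjusted p = 0.00331), and COL4A5 made up 12.3% of type IV FPKM in c5NC. COL19A1 was listed at 0 in both c3NC libraries and at 5.4 FPKM in c5NC (limma, adjusted p = 0.00129), and COL23A1 was at 0.11 and 0.24 FPKM in c3NC, against 4.90 FPKM in c5NC (limma, adjusted p = 0.00416). COL4A6, the type IV chain that pairs with the COL4A5 product, was not tested; it was at 0.03 FPKM in both c3NC libraries and at 1.03 FPKM in c5NC, its only value above 0.14 FPKM. COL1A1 averaged 2187 ± 159 FPKM in c3NC (SD, n = 2), 5.80 times its c5NC value, and missed the threshold (limma, adjusted p = 0.0675). COL8A1, 8.35 times higher in c3NC, also missed it (limma, adjusted p = 0.0520).

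Some epithelial, contractile and fibroblast markers differed between these libraries too. KRT19 was at 0.23 and 0.32 FPKM in c3NC, against 5.53 FPKM in c5NC, and KRT14 at 0 and 0.04 FPKM in c3NC, against 4.22 FPKM in c5NC. The 9 luminal markers as a list summed to 29.4 and 32.4 FPKM in c3NC, against 32.8 FPKM in c5NC. The 7 basal or myoepithelial markers summed to 1710 and 2134 FPKM in c3NC, against 247 FPKM in c5NC. ACTA2, TAGLN and MYLK made up most of that sum, and KRT14 went the other way. The 11 fibroblast markers summed to 15921 and 17269 FPKM in c3NC, against 15086 FPKM in c5NC. Of their 2 largest members, VIM was higher in c5NC (7644 FPKM, against 5234 and 5846 FPKM). The other, DCN, was lower (5264 FPKM, against 6720 and 7270 FPKM). S100A4 was also higher in c5NC, and all remaining members were lower there. LUM was at 757 FPKM in c5NC, against 2031 and 2137 FPKM in c3NC. DPT was at 8.12 FPKM in c5NC, against 87.9 and 80.4 FPKM, and THY1 at 8.36 FPKM, against 27.1 and 36.7 FPKM. EPCAM was listed at 0 in c5NC and in both c3NC libraries. The part of these markers in the collagen difference was not tested.

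The direction of several chains depended on the choice of control. With c5NC as the control of the knockdown, COL11A1, COL27A1, COL5A3 and COL8A1 were called higher and COL19A1 and COL23A1 lower, and COL1A1, COL1A2 and COL15A1 were no longer lower (log2 0.92, 0.25 and 0.90, not called). With c3NC as the control of the overexpression, 0 chains were called by limma, and 6 had an unadjusted p under 0.05. Over all 12180 tested genes, these exchanged controls gave 2655 calls in the knockdown and 525 in the overexpression. With all 3 control libraries as 1 group, 0 chains were called in either contrast, with 3 in the knockdown and 2 in the overexpression at an unadjusted p under 0.05. Calls over the whole table did not end in this way. In the knockdown their number lay between 2655, with c5NC as the control, and 4191, with c3NC. In the overexpression 191 genes were called.

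The knockdown effect and the overexpression effect were tested against each other, each relative to its own control. Limma called 5 of the 23 chains in this difference, or 21.7%, against 7.70% of all genes (4.01% higher and 3.69% lower). COL4A5 had log2 fold changes of 2.26 in the knockdown and −2.71 in the overexpression, a difference of 4.97 ± 0.49 (SE; limma, Benjamini-Hochberg adjusted p = 0.00234). COL19A1 (3.33 ± 0.31; adjusted p = 0.00182) and COL23A1 (3.17 ± 0.36; limma, adjusted p = 0.00365) likewise had positive differences. COL5A3 (−3.13 ± 0.64; adjusted p = 0.0283) and COL15A1 (−2.85 ± 0.56; limma, adjusted p = 0.0252) had negative ones, COL5A3 through its rise in the overexpression alone and COL15A1 through opposite signs. Without either cKDmix library or c3NC replicate 1 neither of these was called, without c3NC replicate 2 only COL5A3 was, and without cRNA28250 replicate 2 or replicate 1 there were 13 and 7 negative calls. How many genes were called over the whole table also changed with the library left out, as the closing section gives. With no filter on low values neither negative difference was called. COL19A1 and COL23A1 had passed the filter only through cKDmix and c5NC libraries. With the controls exchanged all 5 differences changed sign, to values given in the closing section.

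Partner chains were next compared within each library, where a single scaling factor per library cancels, although quantile normalization, which does not act as one factor, moved the COL6A1:COL6A3 and COL8A1:COL8A2 values given in the closing section. Type I trimers hold 2 chains from COL1A1 and 1 from COL1A2, and the transcript ratio COL1A1:COL1A2 was 0.666 and 0.671 in cKDmix, 0.904 and 0.757 in c3NC, 0.803 and 0.4995 in cRNA28250, and 0.42 in c5NC. COL1A2 thus exceeded COL1A1 in every library, and the ratio was lowest in the 2 libraries with the least COL1A1. COL4A1:COL4A2 stayed within 1.24 to 1.68 over the 7 libraries, while the level of COL4A1 itself ranged from 62.7 to 299 FPKM. COL6A1:COL6A3 was 3.04 and 3.06 in cKDmix, against 5.52 and 5.12 in c3NC; the other 3 libraries lay between 4.53 and 5.85. COL6A1:COL6A2 was 1.33 and 1.47 in cKDmix, against 1.93 and 1.90 in c3NC, and 1.69 and 2.09 in cRNA28250, against 2.61 in c5NC. COL5A1:COL5A2 ran from 0.0864 to 0.2001. The cKDmix libraries had the lowest value of all 7 libraries in both type VI ratios, without overlap with any other group. COL8A1 exceeded COL8A2 by 141 to 2945 times, with COL8A2 never above 0.81 FPKM.

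**Figure D5:**
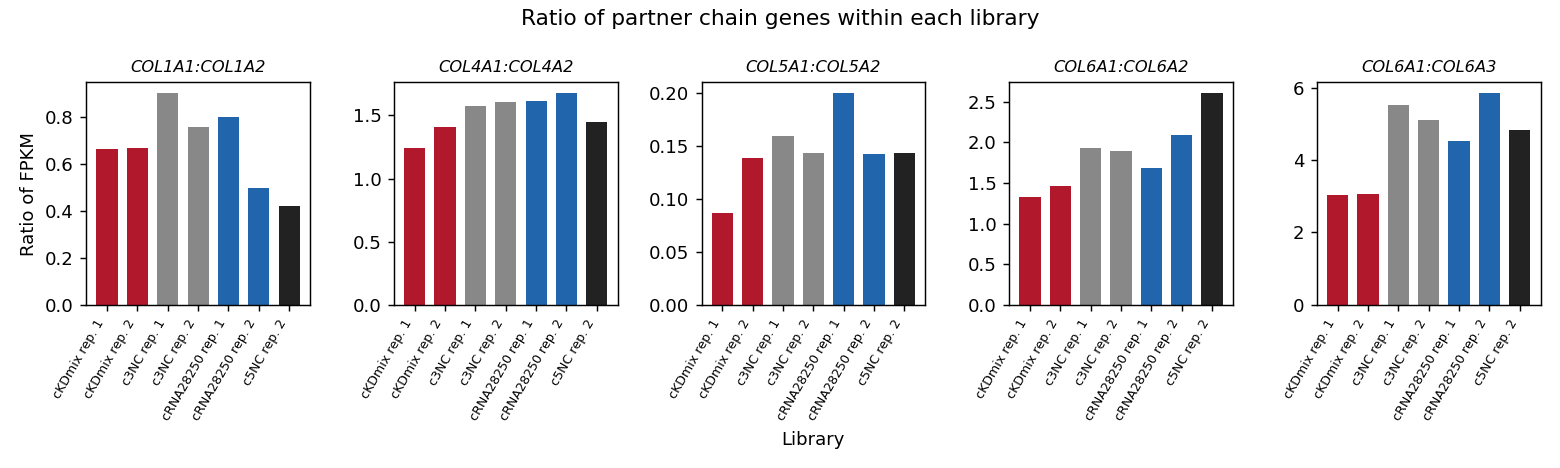
Ratio of the FPKM of partner collagen chain genes within each of the 7 libraries, on axes that start at 0; bar colours mark the 4 groups. COL4A1:COL4A2 stays between 1.24 and 1.68, and both type VI ratios are lowest in the cKDmix libraries.

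Neighbouring collagen genes were also set side by side, using gene order in the RefSeq table only. Of 6 adjacent pairs of collagen genes, 3 had both members tested: COL4A1 with COL4A2, COL6A1 with COL6A2, and COL3A1 with COL5A2. The ratios of the type IV and type VI pairs are given above. For the third pair, the cKDmix mean was 0.634 times the c3NC mean for COL3A1 and 1.02 times for COL5A2, and the c3NC mean was 1.34 and 1.61 times the c5NC value. Of the pair COL19A1 and COL9A1 only COL19A1 was tested, COL9A1 being at or below 0.02 FPKM in every library.

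The gene whose pattern over the 7 libraries was most like that of COL4A1 was COL4A2 (Pearson's r of log2(FPKM + 1) = 0.991), followed by ECE1 (0.984), TOR4A (0.979), CD83 (0.977) and CD276 (0.977). For COL1A1 these were COL1A2 (0.979), HHIPL1 (0.972), ASCC2 (0.972), CD83 (0.959) and COL15A1 (0.957). These values describe 7 libraries that include replicates of the same group, and carry no test.

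Genes that modify, process and cross-link collagen were called in both directions in the knockdown, at a share no greater than that of all genes. Of 34 tested genes of collagen biosynthesis, 7 were called higher and 3 lower in cKDmix, or 29.4%, beside 34.4% of all genes (26.8% higher and 7.56% lower). Their log2 fold changes had a median of 0.02, and those of all genes one of 0.30. P4HA1, the catalytic subunit of prolyl 4-hydroxylase, which stabilises the triple helix, was at 320 and 297 FPKM in cKDmix, against 112 and 138 FPKM in c3NC (log2 fold change 1.30 ± 0.20; limma, Benjamini-Hochberg adjusted p = 0.00623). MIA3, a cargo receptor that loads procollagen into transport carriers, was at 36.1 and 38.9 FPKM in cKDmix, against 15.5 and 20.0 FPKM in c3NC (1.05 ± 0.19; limma, adjusted p = 0.00903). LOXL4, of the lysyl oxidase family, was also called higher (1.37 ± 0.19; limma, adjusted p = 0.00488). ADAMTS2, the protease that removes the amino propeptide of procollagens I and III, fell to 32.2 and 37.0 FPKM in cKDmix, against 101 and 94.9 FPKM in c3NC (−1.48 ± 0.22; limma, adjusted p = 0.00563). SERPINH1, the collagen chaperone HSP47, was at 401 and 357 FPKM in cKDmix, against 404 and 438 FPKM in c3NC, and was not called; it was chosen for naming after its values were seen.

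Of 10 tested collagen receptor genes, 2 were called higher and 3 lower in cKDmix, which is 50% beside 34.4% of all genes, with a median of 0.22 beside 0.30 for all genes. DDR2, a receptor tyrosine kinase for fibrillar collagen, was at 32.2 and 47.8 FPKM in cKDmix, against 13.5 and 12.5 FPKM in c3NC (1.53 ± 0.24; limma, adjusted p = 0.00638). MRC2, which takes up collagen for degradation, was at 48.9 and 53.4 FPKM in cKDmix, against 147 and 131 FPKM in c3NC (−1.42 ± 0.39; limma, adjusted p = 0.0267). CD44 and CD36 were also lower, with log2 fold changes of −1.45 and −1.05 (limma, adjusted p = 0.00488 and 0.00958). Of 13 tested genes of collagen degradation, 2 were higher and 3 lower, which is 38.5% beside 34.4% of all genes, with a median of −0.47 beside 0.30 for all genes. CTSK, a lysosomal protease that cleaves the collagen triple helix, was at 495 and 449 FPKM in cKDmix, against 208 and 236 FPKM in c3NC (1.08 ± 0.23; limma, adjusted p = 0.0137), and the metalloproteinase inhibitor TIMP3 was the other higher gene (4.38). MMP15, a membrane-bound metalloproteinase, and CTSL were lower (−1.39 and −0.97; limma, adjusted p = 0.00568 and 0.0162).

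In the overexpression, 4 of the 34 biosynthesis genes were called higher and 3 lower (median 0.45 against 0.16 for all genes), 1 receptor gene higher and 0 lower, and 3 degradation genes higher and 0 lower. These are 20.6%, 10% and 23.1% of the tested members, beside 7.62% of all genes (5.07% higher and 2.55% lower). COLGALT2, a collagen galactosyltransferase, was at 5.86 and 6.41 FPKM in cRNA28250, against 94.4 FPKM in c5NC (log2 fold change −3.74 ± 0.24; limma, Benjamini-Hochberg adjusted p = 0.00065). In c3NC it was at 0.21 and 0.23 FPKM, so that c5NC stood apart from every other library in this gene. P4HA3, another catalytic subunit of prolyl 4-hydroxylase, and LOX, the lysyl oxidase that starts cross-linking, were highest in c5NC as well. P4HA3 was at 96.1 and 57.5 FPKM in cRNA28250, against 298 FPKM in c5NC (−1.99 ± 0.32; limma, adjusted p = 0.0122), and LOX at 165 and 170 FPKM in cRNA28250, against 635 FPKM in c5NC (−1.92 ± 0.34; limma, adjusted p = 0.0166). P3H4, part of a lysyl hydroxylase complex for collagen, was higher at 105 and 110 FPKM in cRNA28250, against 37.9 FPKM in c5NC (1.48 ± 0.23; limma, adjusted p = 0.0113). ITGA1, a collagen-binding integrin subunit, had a log2 fold change of 1.34, and the degradation genes CTSK, FAP and MMP1 had values of 1.88, 1.63 and 1.08 (limma, adjusted p = 0.0337, 0.0101, 0.0195 and 0.0341).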

How the data were processed

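The deposited table holds FPKM values, 1 per gene and library, which the authors made and rounded to 2 decimals, per the file headers and the values; not given in the sources used here are the aligner, gene model, genome build, strandedness and any scaling of libraries. Of 17374 identifiers, 17007 matched a symbol in RefSeq (ARS1.2), from which only names and gene order were taken. The 12180 genes at 1 FPKM or more in 2 or more of the 7 libraries were tested as log2(FPKM + 1) in 1 limma 3.58.1 fit (R 4.3.3) with 1 mean per group, 3 residual and 4.66 prior degrees of freedom, a variance trend, and two-sided Benjamini-Hochberg adjusted p over all genes; the fit was tested on simulated data. Fold changes on this scale understate those of low genes. Values in at least the cKDmix and c3NC libraries are given for the 8 chains highest by mean and for their partner chains. The same holds for every chain called between groups with a higher-group mean of at least 2 FPKM. From each other list, up to 4 called genes with the smallest p are named in the knockdown and in the overexpression. The members, lists and rules were chosen with earlier results of these data known. Alternatives were another pseudocount (0.1), other filters, scalings, controls and variance models, a replicate block, and leaving out each library.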

Additional observations from a re-analysis of the deposited data

Results flagged for a closer look

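The knockdown and overexpression effects differed, by the test of the difference itself (limma, Benjamini-Hochberg adjusted p under 0.05), in 5 chains. The knockdown effect minus the overexpression effect was 4.97 for COL4A5, 3.33 for COL19A1, 3.17 for COL23A1, −3.13 for COL5A3 and −2.85 for COL15A1, on the log2 scale. The effects are each relative to a different control. COL19A1 and COL23A1 passed the filter only through cKDmix and c5NC libraries. The 5 genes were at 19.6, 5.4, 4.90, 1.39 and 10.3 FPKM in c5NC, which is the highest of the 7 libraries for the first 3 and the lowest for the last 2; the part of this library in the differences was not tested.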

How the results depend on the processing

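With the other control group (c5NC for the knockdown, c3NC for the overexpression), log2 fold changes of called chains changed sign. In the knockdown they became −1.70 for COL19A1, −1.16 for COL4A5, 0.92 for COL1A1, 0.25 for COL1A2, 0.90 for COL15A1, −1.32 for COL23A1 and −0.16 for LOXL4. In the overexpression they became 0.33 for COL19A1, 0.72 for COL4A5, 0.17 for COL23A1, 2.55 for COLGALT2, −0.065 for P3H4, −0.40 for ITGA1 and −0.59 for CTSK. The difference between the effects became −2.02 for COL19A1, −1.87 for COL4A5, 1.40 for COL5A3, 1.54 for COL15A1 and −1.49 for COL23A1. Under that setting limma called 2655 genes and 2 chains lower in the knockdown, 525 genes and 0 chains in either direction in the overexpression, and, in the difference, 1 chain lower (COL19A1) and 2 higher (COL11A1 and COL8A1), neither of these 2 being called with each effect's own control; 3 biosynthesis, 0 receptor and 0 degradation genes were called in the overexpression. With all 3 control libraries as 1 group, 0 chains were called higher or lower in either contrast or in their difference. Over the whole table, 191 genes were called in the overexpression and 465 in the difference. The number called in the knockdown lay between the 2655 with c5NC as its control and the 4191 with c3NC. COLGALT2 became 0.45 in the overexpression. Biosynthesis, receptor and degradation calls were 5, 3 and 3 in the knockdown and 0 of each in the overexpression. The cause of these changes was not tested.

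Without a filter on low values 0 chains were called lower in the knockdown, 0 higher in the overexpression, 0 lower in the difference and 0 higher in c3NC than in c5NC; list calls were 5, 3 and 4 in the knockdown and 4, 0 and 1 in the overexpression, for biosynthesis, receptors and degradation. Quantile normalization gave 2742 genes and 2 chains lower in the knockdown, 1 chain higher in the overexpression, 6 biosynthesis and 8 degradation calls in the knockdown and 0 receptor calls in the overexpression. It moved the log2 ratio of cKDmix over c3NC to −0.50 for all collagen FPKM, −0.56 for fibrillar chains, −0.14 for other types, −0.49 for COL6A1:COL6A3 and −0.11 for COL8A1:COL8A2. Median ratio scaling gave 9 degradation calls in the knockdown and 0 receptor calls in the overexpression, and a pseudocount of 0.1 gave 2 receptor calls in the overexpression and ended the knockdown call of COL11A1 (adjusted p = 0.0922). With only the libraries compared in the fit, 6390 genes and 10 chains lower were called in the knockdown, 231 genes and 1 chain higher in the overexpression, and 1325 genes and 11 chains higher between the controls; degradation calls in the knockdown were 10, and in the overexpression biosynthesis, receptor and degradation calls were 1, 0 and 0. Of 25 chain calls, all kept direction and threshold with the filter on the mean and with median ratio scaling, and 23 did with no variance trend, which ended the calls of COL4A2 in the knockdown and COL11A1 between the controls.

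The labels do not say whether same-numbered libraries share more than a number. Their deviations from the group means correlated at 0.111 (cKDmix with c3NC), 0.283 (cRNA28250 with c3NC) and −0.152 (cKDmix with cRNA28250). These correlations cannot settle whether such libraries were prepared together. With the replicate block 4084 genes were called in the knockdown and 672 in the overexpression, 615 in the difference and 443 between the controls; 1 chain was called higher in the overexpression and 1 lower in the difference, and 0 receptor genes in the overexpression. It ended the calls of COL1A1 and COL1A2 in the knockdown (limma, adjusted p = 0.0524 and 0.0576), COL27A1 in the overexpression (0.0753), COL15A1 in the difference (0.0535), and COL5A3 and COL15A1 between the controls (0.0658 and 0.0709), and it called COL16A1 lower in the knockdown (0.0440) and COL8A1 higher between the controls.

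Leaving out each library in turn gave 45 to 6394 genes, 0 to 5 chains higher and 0 to 10 lower in the knockdown, 308 to 2904 genes and 0 to 12 chains higher in the overexpression, 93 to 3430 genes and 0 to 13 chains lower in the difference, and 192 to 1879 genes and 0 to 11 chains higher between the controls. List calls ranged from 0 to 14, 0 to 6 and 1 to 10 in the knockdown and from 2 to 15, 0 to 6 and 1 to 6 in the overexpression, for biosynthesis, receptors and degradation. The single c5NC library could not be left out where it is compared. Read depth is unknown, so it sets no stated limit here.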
